A study of Mus musculus with 4 samples.

Results

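The ATR-CHK1 replication stress checkpoint was followed through a pooled CRISPR-Cas9 knockout screen reporting on the endogenous retrovirus MERVL in mouse embryonic stem cells. The 10 genes were chosen by their known place in the pathway and looked up by symbol, and all 10 of them are among the 20380 genes in the authors' deposited table. Their products sense stalled forks (Atr, Atrip), load and form a DNA clamp (Rad17, Rad9a, Hus1, Rad1), switch the kinase on (Topbp1), pass the signal along at the fork (Clspn, Timeless) and carry it to the cell cycle (Chek1).

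All 4 libraries came from E14, an established mouse embryonic stem cell line, with the genotype MERVL-tdTomato and the treatment given as none. Cells were grown with serum and LIF and received a lentiviral library on the lentiCRISPRv2 backbone, which carries Cas9 and the guide in 1 vector, so Cas9 delivery, polybrene (4 ug/mL) and puromycin (2 ug/mL for 48 h) were shared by both groups. At day 5, about 500000 cells positive for the tdTomato reporter were sorted. The groups are 2 libraries of guide DNA from these MERVL-positive cells and 2 from total cells, and the titles call the libraries of a group sequencing repeats, with no separate cultures named. Only genomic DNA was read, so neither the expression of the checkpoint genes nor markers of the cell type could be examined.

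ATR is a kinase that, with its partner ATRIP, is drawn to single-stranded DNA coated by the protein RPA, as forms when replication forks stall. RAD17 loads the ring of RAD9, RAD1 and HUS1 beside it, the ring brings in TOPBP1, and TOPBP1 activates ATR. With claspin and TIMELESS as mediators, ATR then phosphorylates CHK1, which holds back the cell cycle and the firing of further origins. Several of these genes, Atr, Chek1 and Hus1 among them, are needed for the mouse embryo to survive. MERVL is active at the 2-cell stage and in a few cultured stem cells that resemble it, called 2-cell-like, and ATR signalling has been reported to raise that state under replication stress. The screen compares, gene by gene, whether guides against this pathway are more or less frequent among MERVL-positive cells than among total cells. Whether cells carrying a guide had lost the gene's product, and how well they survived, could not be examined.

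The authors' deposited table gives each gene 1 log2 fold change between the groups, and for each direction a p-value with its false discovery rate (FDR). It holds no value per library, so no gene has a spread between libraries and the depth is unknown. The numerator of the fold change is not stated. Here a positive value is taken to mean a larger guide share among MERVL-positive cells, called enrichment, and a negative one to mean a smaller share, called depletion. That reading is likely, though not settled. It rests on the study's title, which names Ints7 deficiency as activating MERVL, and on the rank of Ints7. Per the authors' deposited table the rank was 157 for positive and 18586 for negative change. The log2 fold change of Ints7 was only 0.14, at an FDR of 0.931 for positive change, so this anchor is weak. If the reading is wrong, every direction given here turns. The labels' numbers come to 3.84 sorted cells per library guide, or 23 per gene with 6 guides, so a gene without a call may still have had an effect.

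The checkpoint genes lay on both sides of 0. By the authors' deposited table, Topbp1, Atrip, Chek1 and Rad1 had log2 fold changes between 0.47 and 0.83, Atr, Timeless and Rad9a lay within 0.2 of 0, and Clspn, Rad17 and Hus1 lay between -0.31 and -0.91. The median of the 10 genes was 0.10 per the authors' deposited table, beside -0.021 over all genes and 0.019 over 998 single non-targeting guides. Of the 10, 4 had a value below 0, or 40%, beside 52.0% of all genes. The values were spread widely: the median size without regard to sign was 0.52, beside 0.29 over all genes, and the standard deviation between the 10 genes was 0.58, beside 0.47 among the 19577 genes with 5 or 6 guides. These figures describe the set, which was chosen with earlier results of these data known, and were not tested.

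No checkpoint gene passed an FDR of 0.05 in either direction per the authors' deposited table, where the lowest FDR was 0.975 for depletion (Hus1) and 0.985 for enrichment (Chek1 and Topbp1). Over all genes, 0% passed that threshold for enrichment and 0.00491%, a single gene, for depletion. At the deposited unadjusted p of 0.05, computed by MAGeCK per the submitters' processing notes, 1 of the 10 was called for enrichment, Chek1, beside 5.02% of all genes. At the same threshold 1 was called for depletion, Hus1, beside 5.07% of all genes. With 10 genes, 1 call in each direction is near these backgrounds and is no result about the pathway. At a deposited p of 0.1 there were 2 for enrichment (Chek1 and Topbp1), beside 9.96% of all genes, and 2 for depletion (Hus1 and Clspn), beside 10.2%. At 0.01 there was none in either direction, beside 1.07% and 1.12% of all genes.

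**Figure D1:**
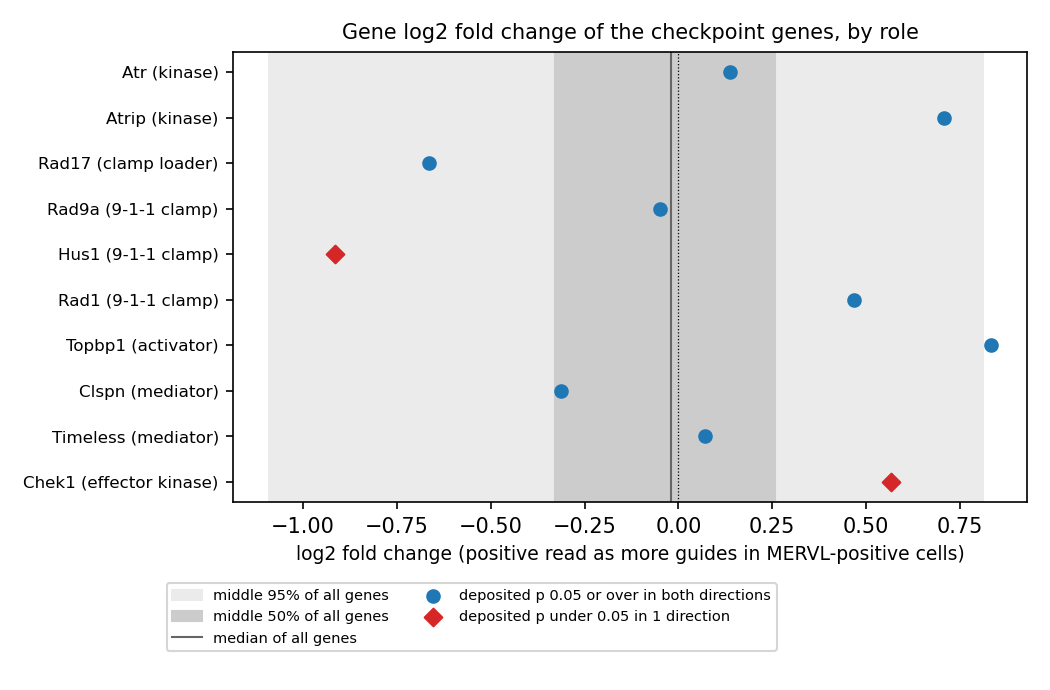
Log2 fold change of the 10 checkpoint genes (x axis, positive read as more guides in MERVL-positive cells), ordered by role from the sensor to the effector. Dark and light grey bands hold the middle 50% and 95% of the 20380 genes, and diamonds mark the genes with a deposited unadjusted p under 0.05. Topbp1 lies just past the light band at 0.83, while Hus1 at -0.91 is inside it.

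The sensor is the kinase with its partner. Atr lies on chromosome 9 from 95857597 to 95953217 in mm10 and was hit by 5 guides, of which 2 were up, none was down and 3 were neither per the authors' deposited table. A guide counts as up or down here when it passed the authors' guide threshold, which is loose: over all genes 37.4% of guides were up and 38.0% down. The log2 fold change of Atr was 0.14 (a ratio of 1.10) per the authors' deposited table, with an enrichment p of 0.484 and a depletion p of 0.959. Having no guide down is not rare, since 9.28% of the 3307 genes with 5 guides had none.

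Atrip, whose product recruits ATR to RPA-coated DNA, lies on chromosome 9 from 109059747 to 109074124. The authors' deposited table gives it 4 of 6 guides up and 1 down. Among genes with 6 guides, 14.5% had at least 4 up. Atrip had a log2 fold change of 0.71 per the authors' deposited table, which is 1.63 as a ratio. That places it above 95.9% of all genes by fold change, but its enrichment p per the authors' deposited table was only 0.202, at rank 4250 of 22510 entries. The partners thus share their sign and differ by 0.57 on the log2 scale, with no replicate error to set that difference against.

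Rad17, the subunit that turns replication factor C into the loader of the checkpoint clamp, lies on chromosome 13 from 100617164 to 100651061. Its guides were divided per the authors' deposited table, 3 of 5 down and 2 up with none between. Its log2 fold change, -0.66 per the authors' deposited table, lay below that of 90.4% of all genes, yet its p-values were similar in both directions, 0.158 for depletion and 0.192 for enrichment. Neither direction was called.

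The clamp itself is a ring of 3 different proteins. The values of its genes differed, with no replicate error to set the differences against. Hus1, on chromosome 11 from 8993137 to 9011236, had the lowest value of the pathway's 10 genes, with a log2 fold change of -0.91 (0.531 as a ratio) per the authors' deposited table. Its 6 guides comprised 5 down and none up, and 1.47% of the genes with 6 guides had at least 5 down and none up. Its depletion p was 0.0347 at an FDR of 0.975 per the authors' deposited table, with rank 743 of 22510.

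Rad1, on chromosome 15 from 10486018 to 10499063, went the other way with a log2 fold change of 0.47 and 4 of 6 guides up per the authors' deposited table. Its enrichment p was 0.160 and its depletion p 0.271 per the authors' deposited table, so neither direction was called. Rad9a, on chromosome 19 from 4195196 to 4201672, was at -0.048 with 2 guides up, 2 down and 2 neither per the authors' deposited table. From Rad1 to Hus1 the range within the ring was 1.38 on the log2 scale. Over the 18 guides of the ring, 6 were up and 8 down per the authors' deposited table.

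Topbp1 encodes the scaffold whose activation domain switches ATR on. It lies on chromosome 9 from 103305167 to 103350428 and had the highest value of the 10, with a log2 fold change of 0.83 (1.78 as a ratio) per the authors' deposited table. Only 2.17% of all genes lay above it. By the authors' deposited table, its 6 guides were 5 up and 1 down, and 2.91% of genes with 6 guides had at least 5 up. Its enrichment p of 0.0701 per the authors' deposited table nonetheless missed 0.05.

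The mediators sit with the replication fork. Clspn, the gene of claspin, which holds CHK1 for phosphorylation, lies on chromosome 4 from 126556957 to 126594533 and resembled Hus1 by its guides, with 5 of 6 down and none up per the authors' deposited table. Its log2 fold change was smaller, -0.31 per the authors' deposited table, with a depletion p of 0.0767. Hus1 and Clspn were the only checkpoint genes with 5 guides on the depleted side. Timeless, a fork protection factor on chromosome 10 from 128232063 to 128252941, had 2 guides up, 2 down and 2 neither and a value of 0.071 per the authors' deposited table.

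Chek1 encodes CHK1, the kinase that carries the ATR signal to the cell cycle, and lies on chromosome 9 from 36708482 to 36726658. Its log2 fold change was 0.57 (a ratio of 1.48) per the authors' deposited table, where its 6 guides divided into 3 up, 2 down and 1 neither. It had the best enrichment p of the 10 per the authors' deposited table, 0.0262 at rank 548, although Topbp1 and Atrip had higher fold changes and more guides up. Chek1 was thus called with 3 guides up, while Topbp1 with 5 was not. Among genes with 6 guides, 2.61% had an enrichment p as low.

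**Figure D2:**
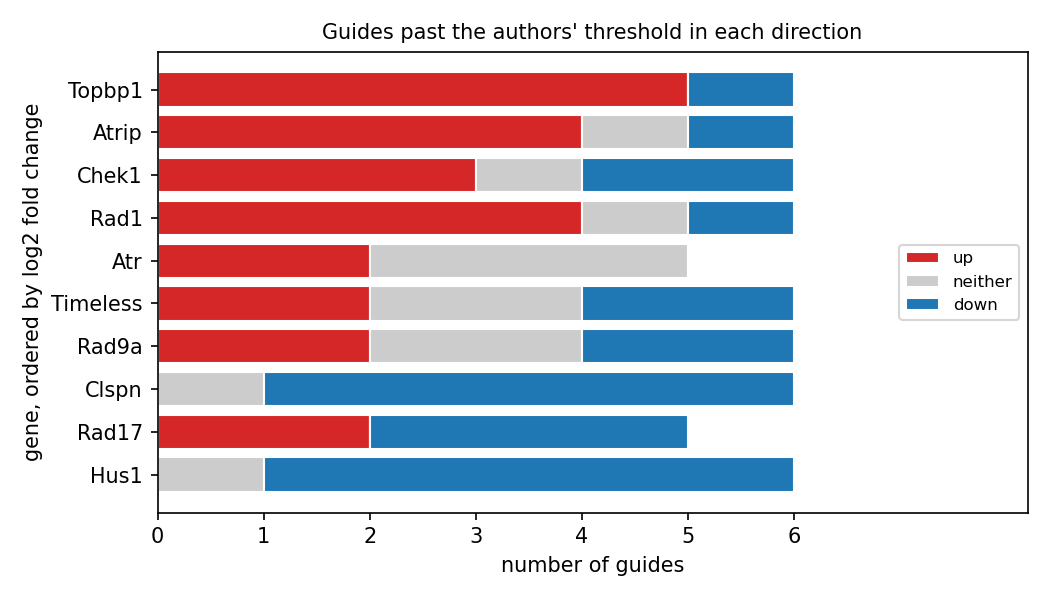
Number of guides per checkpoint gene (x axis) that were up, down or neither by the authors' guide threshold, with the genes ordered by log2 fold change from Topbp1 at the top to Hus1 at the bottom. Hus1 and Clspn have 5 guides down and none up, Atr has none down, and Rad17 and Chek1 have guides on both sides.

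Counted over all 58 guides against the 10 genes, 24 were up (41.4%), 22 down (37.9%) and 12 neither per the authors' deposited table. The shares over all genes, 37.4% and 38.0%, are close to these. Guides to 1 gene share their target and are not replicates, and no test was made on them. By gene, 5 of the 10 had more guides up than down, 3 had more down than up, and Timeless and Rad9a were tied per the authors' deposited table. The matching shares over all genes were not computed, so these counts are no result about the pathway.

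**Figure D3:**
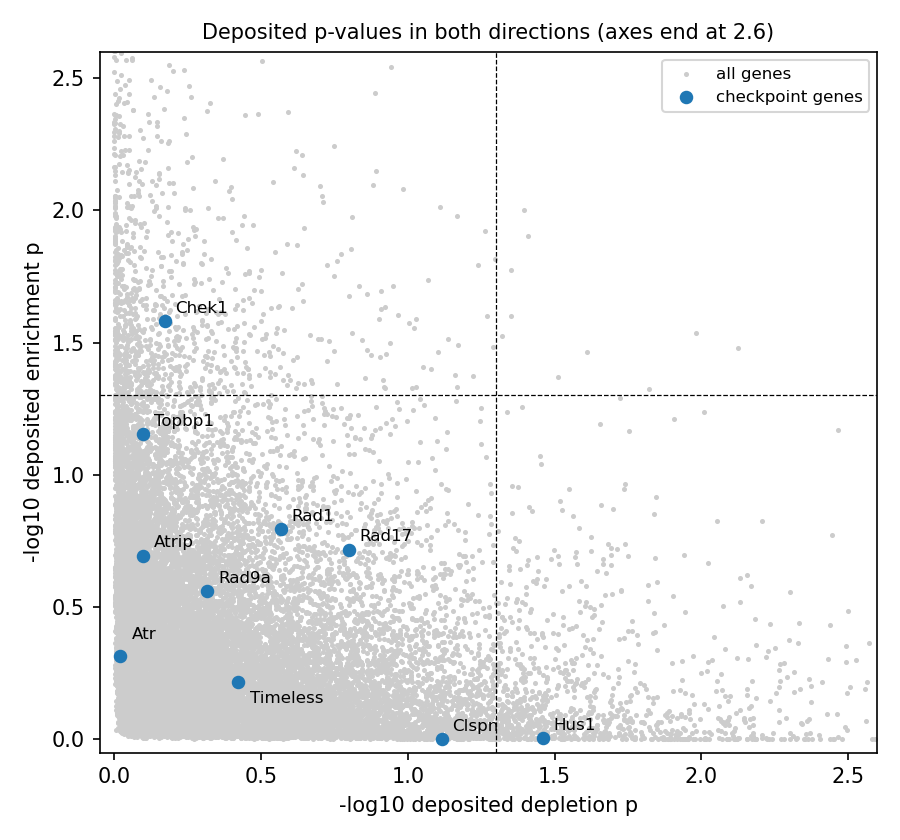
Deposited unadjusted p for depletion (x axis) and for enrichment (y axis), both as -log10, for the 10 checkpoint genes over all genes in grey, with dashed lines at 0.05 and axes that leave out the genes beyond 2.6. Chek1 lies above the line for enrichment and Hus1 beyond the line for depletion, with Topbp1 and Clspn just short of them.

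The genes were also grouped by position in the genome, which the choice of the set did not use. This grouping was not among the planned comparisons. Atr, Atrip, Topbp1 and Chek1 lie on chromosome 9, and these 4 had values from 0.14 to 0.83 per the authors' deposited table. Of their 23 guides, 14 were up and 4 down, where over all genes matched to chromosome 9 40.4% were up and 34.5% down. The other 6 genes lie on 6 different chromosomes and had values from -0.91 to 0.47, with 10 of 35 guides up and 18 down per the authors' deposited table. Chromosome 9 as a whole stood high: the median over its 1106 genes matched by symbol was 0.063, first of the 20 chromosomes compared, whose medians reached down to -0.072. Without the checkpoint genes it was 0.060. With each chromosome's own median taken off, an alternative chosen after the values were seen, Topbp1 was at 0.77, Atrip at 0.64, Chek1 at 0.50 and Atr at 0.074. The part of the chromosome in these values was not tested.

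Neighbouring genes were compared as well. Topbp1, Atrip and Chek1 lay above 97.8%, 95.9% and 92.4% of all genes, and Hus1 and Rad17 below 95.6% and 90.4%. Standing beyond most neighbours follows from such values, so these counts cannot show an effect of position, which was not tested. Within 1 Mb on each side, Topbp1 lay above all 20 measured neighbours, whose median was 0.15 per the authors' deposited table. Chek1 lay above 20 of 21 neighbours (median 0.057), and Atrip above 57 of 58 (median 0.14), whereas Atr lay above 10 of 16 (median 0.079). At the other end Hus1 lay below all 5 of its neighbours, whose median was -0.13, and Rad17 below all but 1 of 20. No pair of the 10 genes lay within 1 Mb of each other.

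Other genes of the pathway were taken from a list of 25 partners, paralogs and targets, of which 24 are found in the authors' deposited table; Rhno1 was not analysed here. None of the 24 had an enrichment p under 0.05 and 1 had a depletion p under 0.05 per the authors' deposited table, beside 5.02% and 5.07% of all genes. Their median log2 fold change was -0.041, and 14 of 24 lay below 0.

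Paralogs of the clamp genes and partners of the activator and mediators are also in the list. Rad9b, a paralog of Rad9a, had a log2 fold change of 0.16, and Hus1b, a paralog of Hus1, one of -0.081 with 2 of 6 guides down per the authors' deposited table. Hus1 was lower than Hus1b by 0.83 on the log2 scale. Etaa1, which activates ATR independently of TOPBP1, was at 0.065 per the authors' deposited table, 0.77 below Topbp1. Tipin, the binding partner of TIMELESS, was at -0.52 with 3 of 6 guides down per the authors' deposited table, against 0.071 for Timeless.

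The genes of RPA, the coat that recruits ATRIP, had values of -0.037 (Rpa1), 0.21 (Rpa2) and -0.50 (Rpa3) per the authors' deposited table. The small replication factor C subunits, which RAD17 joins, ranged from -0.39 (Rfc4) to 0.30 (Rfc3), and the lowest depletion p among them was 0.0511, for Rfc2, with 2 guides up and 2 down per the authors' deposited table. Neither group showed a common sign.

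Among the targets and opponents of CHK1 signalling, the 7 cell cycle genes ranged from -0.80 to 0.59. Wee1, whose kinase restrains CDK1 as the checkpoint does, had the lowest value with 5 of 6 guides down and a depletion p of 0.0582 per the authors' deposited table. Pkmyt1, a second inhibitory kinase of CDK1, had the highest, with 4 of 6 guides up and an enrichment p of 0.0874 per the authors' deposited table. Cdc25a, the phosphatase that CHK1 marks for destruction, was at 0.43 with 3 of 5 guides up and none down per the authors' deposited table.

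Smarcal1, a fork remodelling enzyme that ATR phosphorylates, was the lowest of the 3 remodelling enzymes listed, at -1.35 with 4 of 6 guides down and a depletion p of 0.0611 per the authors' deposited table. The other remodelling enzymes, Zranb3 and Hltf, were at 0.067 and -0.060 per the authors' deposited table.

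Dux, the transcription factor that drives the 2-cell program, was the called gene of this list, with a log2 fold change of -1.41, 3 of 3 guides down and a depletion p of 0.00419 per the authors' deposited table. Its many near-identical copies make that value uncertain. Grsf1, an RNA-binding protein reported to link ATR signalling to Dux, was at -0.045 with 1 of 6 guides down per the authors' deposited table.

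**Figure D4:**
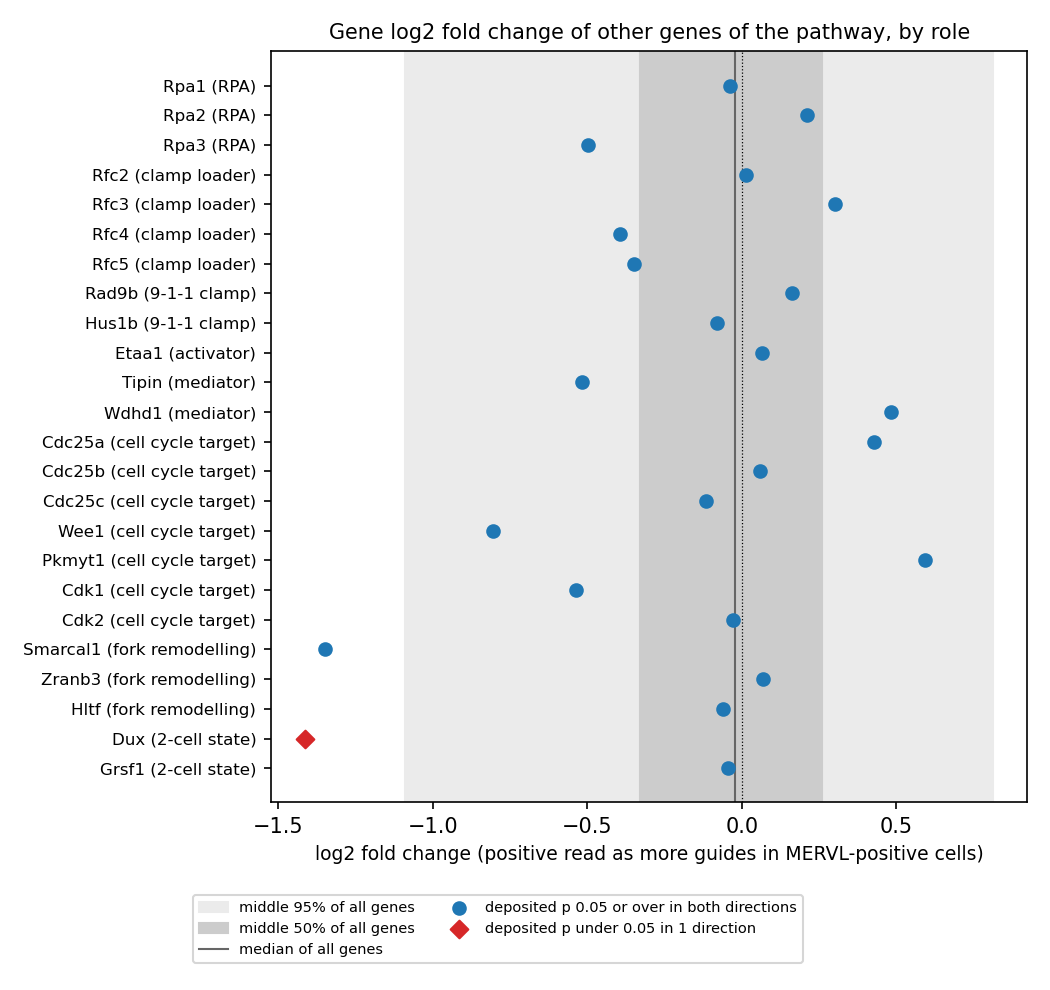
Log2 fold change (x axis, positive read as more guides in MERVL-positive cells) of 24 other genes of the pathway, grouped by role, with grey bands for the middle 50% and 95% of all genes. Dux, at -1.41, is marked as called by its deposited depletion p, Smarcal1 at -1.35 also lies outside the light band, and the remaining genes fall within it.

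The fork machinery that the checkpoint guards is the closest comparison. Of 38 genes of origin licensing, the replicative helicase and the polymerases, 30 lay below 0 and the median was -0.30, where the checkpoint genes had 4 of 10 below 0 and a median of 0.10. By the authors' deposited table, 6 of the 38 had a depletion p under 0.05, beside 5.07% of all genes. They were Cdc45 (-1.20), Gins4 (-1.04) and Mcm2 (-0.19) of the replicative helicase and Orc4 (-0.92), Cdc6 (-1.42) and Cdt1 (-0.80) of origin licensing. Log2 fold changes per the authors' deposited table are in brackets. None of the 6 passed an FDR of 0.05, with values from 0.846 to 0.975 per the authors' deposited table. Mcm2 had only 1 of 5 guides down and 4 neither, and Gins4 and Cdt1 each had 2 up per the authors' deposited table. The polymerase delta subunit Pold3, at 0.81, was the 1 gene with an enrichment p under 0.05 per the authors' deposited table, beside 5.02% of all genes. Of the replication genes' guides 48.0% were down and 27.1% up, beside 37.9% and 41.4% for the checkpoint genes per the authors' deposited table. The difference between the lists was not tested, since both were chosen with results of these data known.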

How the data were processed

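Guide abundance was measured in 4 libraries, 2 of MERVL-positive and 2 of total cells. The authors deposited 1 gene table of 22510 entries, made with MAGeCK on build mm10 per the submitters' processing notes; the sources used here name no version, settings or normalization. Per the file headers, the authors deposited a score, a p-value, an FDR, a rank and a number of guides past a guide threshold for each direction, and a log2 fold change, taken as base 2 by MAGeCK's convention. The authors' p-values were used as deposited, with thresholds of 0.05. They may rest on technical spread alone, since the titles name sequencing repeats. Ranks run over all entries; medians and percentiles were computed over the 20380 genes, without 1132 microRNAs and 998 non-targeting guides.

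The planned count model could not be fitted because no guide counts per library were used here, and the planned protein description was not made. Positions came from a RefSeq table of GRCm38.p6, the coordinates of mm10, in which all 10 genes and 19058 of the 20380 matched by symbol. Medians, counts and percentiles were computed in Python 3.11.15 with pandas 2.3.3 and tested on simulated data. The 10 genes and all lists were chosen with earlier results of these data known. The naming rule took all 10 genes, Dux (the listed pathway gene with an unadjusted p under 0.05), Rad9b, Hus1b, Etaa1, Tipin and Grsf1, and of the replication and ATM lists the genes with an unadjusted p under 0.05, together with Atm and Chek2. The RPA, replication factor C, cell cycle and fork remodelling genes named beside these were chosen after their values were seen, and other listed genes are given by counts and in the plot of the pathway's other genes. Alternatives were other thresholds, other centring, the mean for the median, and leaving out Chek1.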

Additional observations from a re-analysis of the deposited data

How the results depend on the processing

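The calls depend on the threshold. With an unadjusted p under 0.01, or a deposited FDR under 0.05 or 0.25, there were 0 called genes among the 10 for enrichment and 0 for depletion (over all genes 1.07% and 1.12% at p under 0.01, and 0% and 0.00491% at either FDR), where the deposited unadjusted p of MAGeCK under 0.05 gave 1 and 1. With p under 0.1 there were 2 and 2, beside 9.96% and 10.2% of all genes. The median of 0.10 was 0.125 relative to all genes, 0.0851 relative to non-targeting guides, 0.0842 as a mean, 0.0712 without Chek1 and, in the alternative added after the values were seen, 0.0875 relative to each gene's own chromosome. Beside the 4 genes below 0, 4 had a better rank for depletion than for enrichment, and 3 had more guides down than up. The 4 by rank were not the same genes. Timeless, at 0.071, ranked better for depletion (8091 against 13054 for enrichment). Rad9a, at -0.048, ranked better for enrichment (5812 against 10342 for depletion). The planned centrings shift all genes alike by less than the smallest of the 10 values, so they could change no sign and show nothing about stability. No paired analysis was possible because the deposited table holds 1 comparison and no value per library, so no library could be left out either. The guide-count alternatives were not run for the same reason.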

Other observations

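The parallel ATM branch, which answers double-strand breaks, also had genes at both ends. By the authors' deposited table, 2 of 15 genes of ATM and p53 signalling had an enrichment p under 0.05, beside 5.02% of all genes. A depletion p under 0.05 was found for 2, beside 5.07%. The FDR of these genes was 0.985 for enrichment and 0.975 for depletion per the authors' deposited table. With 15 genes, such counts are no result about the branch. Atm, the kinase related to Atr, stood at 0.84 on the log2 scale, with 4 of 6 guides up and an enrichment p of 0.0333 per the authors' deposited table. Mre11a, a nuclease subunit of the complex that activates ATM, had a value of 0.99 with 4 of 6 guides up and a p of 0.0356 per the authors' deposited table. Atm and Mre11a lie on chromosome 9, as do Atr and Chek1. Tipin, at -0.52, and Cdc25a, at 0.43, lie there too, so named genes of this chromosome had both signs. The part of the chromosome in these values was not tested. Chek2, the kinase that stands to Atm as Chek1 stands to Atr, was at -0.035 with 2 guides up and 2 down per the authors' deposited table. Mdm2, the ubiquitin ligase that degrades p53, was at -1.43 with 3 of 4 guides down and a depletion p of 0.0356, and Rnf168, a ubiquitin ligase at breaks, was at -0.38 with a depletion p of 0.0476 per the authors' deposited table. Over the 15 genes the median was -0.15.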
